A study of Homo sapiens with 12 samples.

Results

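The unfolded protein response and the chaperones of the endoplasmic reticulum (ER) were followed through 10 genes: HSPA5, HSP90B1, CALR, PDIA4, DNAJB9, XBP1, HERPUD1, SDF2L1, MANF and HYOU1. The members were chosen by gene symbol. All 10 were found among the 44659 genes listed in the count table, and all 10 passed the filter on low counts that left 15916 genes for testing. RNA was sequenced from A375, 1 human melanoma cell line, in 4 groups of 3 libraries. CC received the solvent DMSO for 72 h. TC received 500 nM vemurafenib, a BRAF inhibitor, with 500 nM cobimetinib, a MEK inhibitor (MAPKi), for 72 h. PC (persister cells) had the same 72 h of MAPKi and then 2 days without drug, and RC had the same 72 h and then 9 days without drug. PC and RC were harvested on days of their own, without a DMSO control of the same age, so that drug removal and time in culture cannot be told apart. The labels name the RNA as cytoplasmic and ribosomal RNA as depleted. Nothing in the labels says that the 3 libraries of a group came from separate cultures, so the p-values measure the spread between these libraries, which may be technical. In a bulk sample, fewer cells of a kind and less RNA per cell cannot be told apart.

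Proteins that enter the secretory pathway fold in the ER, where HSPA5 (BiP) and HSP90B1 (GRP94) are the HSP70 and HSP90 chaperones, calreticulin (CALR) is a lectin chaperone that also stores calcium, and PDIA4 is a disulfide isomerase. When unfolded proteins accumulate, the sensors IRE1 (gene ERN1), PERK (EIF2AK3) and ATF6 start the unfolded protein response. IRE1 splices the XBP1 transcript, PERK raises translation of ATF4, and cleaved ATF6 enters the nucleus. The factors made in this way raise transcription of chaperones and of ER-associated degradation through the ER stress element (ERSE) and related elements in promoters. Melanoma cells make large amounts of secreted, membrane and melanosome proteins that pass through the ER.

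Promoter sequences are shown first because the ERSE is the element by which this group of genes is known. The element was searched in RefSeq promoters (GRCh38.p14, 250 bases before to 50 after each start site), on both strands. All 10 members were matched, with 12 promoter windows. The ERSE, with the letters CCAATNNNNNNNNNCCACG, was present in 4 members (HSPA5, HSP90B1, CALR and XBP1) and in 0.0769% of 35116 promoters. HSP90B1 held 2 matches. As this group is known by the element, the matches describe the members, and no enrichment over other promoters was tested. ERSE-II, ATTGGNCCACG, was present in 3 members (HERPUD1, SDF2L1 and HYOU1) and in 0.0541% of promoters. The core of the UPR element, TGACGTGG, was found in HYOU1, where it overlapped an ERSE-II match, and in 0.729% of promoters. The ATF4 composite element, searched as TGATGNAAN, was found in HERPUD1 and in 3.61% of promoters. No match to these 4 patterns was found in the windows of PDIA4, DNAJB9 and MANF, which says only that these letters are not there. The 250 bases before the start site are printed for the 4 members with an ERSE and for HERPUD1, because these 5 moved in both directions under MAPKi: HSPA5 and CALR rose, and HSP90B1, XBP1 and HERPUD1 fell. Capitals mark the matches to the ERSE or, in HERPUD1, first to the ATF4 composite element and then to ERSE-II.
HSPA5, chr9:125241344-125241593, minus strand: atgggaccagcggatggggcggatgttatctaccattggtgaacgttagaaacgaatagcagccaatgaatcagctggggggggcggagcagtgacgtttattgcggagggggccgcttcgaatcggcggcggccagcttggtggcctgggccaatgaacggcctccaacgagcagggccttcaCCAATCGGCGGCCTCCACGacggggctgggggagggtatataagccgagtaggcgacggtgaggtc
CALR, chr19:12938359-12938608, plus strand: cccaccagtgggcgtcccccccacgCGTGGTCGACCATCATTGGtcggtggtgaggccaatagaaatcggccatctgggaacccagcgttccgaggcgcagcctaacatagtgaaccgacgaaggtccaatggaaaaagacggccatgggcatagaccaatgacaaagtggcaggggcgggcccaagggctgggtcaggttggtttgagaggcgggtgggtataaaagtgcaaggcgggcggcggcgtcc
HSP90B1, chr12:103930160-103930409, plus strand: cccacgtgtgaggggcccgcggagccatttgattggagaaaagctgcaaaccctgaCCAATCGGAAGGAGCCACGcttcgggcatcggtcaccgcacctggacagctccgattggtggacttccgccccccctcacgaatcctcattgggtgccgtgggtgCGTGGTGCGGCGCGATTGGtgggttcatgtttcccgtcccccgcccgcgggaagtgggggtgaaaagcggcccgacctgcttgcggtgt
XBP1, chr22:28800570-28800819, minus strand: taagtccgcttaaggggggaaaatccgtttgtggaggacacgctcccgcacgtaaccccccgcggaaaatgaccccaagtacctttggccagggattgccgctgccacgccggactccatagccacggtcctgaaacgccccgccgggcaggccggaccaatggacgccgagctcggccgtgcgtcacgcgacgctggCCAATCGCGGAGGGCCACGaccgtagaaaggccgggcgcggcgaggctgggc
HERPUD1, chr16:56931892-56932141, plus strand: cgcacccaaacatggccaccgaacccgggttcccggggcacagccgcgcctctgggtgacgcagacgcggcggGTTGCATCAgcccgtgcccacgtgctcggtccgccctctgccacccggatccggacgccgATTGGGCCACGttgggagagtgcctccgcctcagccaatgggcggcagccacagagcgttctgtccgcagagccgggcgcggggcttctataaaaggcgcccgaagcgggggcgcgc
Counted from the start site, the ERSE match lay at -66 to -48 in HSPA5, at -225 to -207 in CALR, at -194 to -176 and -89 to -71 in HSP90B1, and at -52 to -34 in XBP1. These 4 genes shared the element while the transcripts did not share a direction under MAPKi. The other XBP1 window, at 28800028 to 28800327, held no match. Whether the element played a part in the changes was not tested.

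Total counts ran from 37773389 to 55567097 per library. SPRY4, a feedback inhibitor that is transcribed when the MAPK pathway is active, served as a check of drug action. It was at 270.3 to 719.6 CPM (counts after scaling each library by its TMM-normalized total) for CC, 1.46 to 1.79 for TC, 0.674 to 0.925 for PC and 249 to 285 for RC. The summed level of 10 markers of the melanocyte lineage was 1919.9 to 2110.1 CPM for CC, 7356 to 10658 for TC, 3744 to 5444 for PC and 1726 to 1783 for RC. DCT alone held most of this rise, at 337 to 444 CPM for CC, 5261 to 7866 for TC, 1955 to 3177 for PC and 396 to 436 for RC. At an adjusted p under 0.05 (edgeR), 7 of the 10 markers were higher and 1 lower in TC and again in PC. In RC, 0 were higher and 5 lower. Over all genes tested, 33.2% were higher and 34.7% lower for TC, 33.2% and 35.9% for PC, and 18.2% and 19.1% for RC. PMEL had a mean of 70.1 CPM for CC and 615.5 for TC, and SOX10 of 658.7 and 1045.9. The markers did not all move alike. S100B was at 234 to 305 CPM for CC and 128 to 149 for TC. MITF was at 303 to 476 for CC, 236 to 407 for TC and 147 to 288 for PC. Of the other markers, SOX10 was at 538.8 CPM or more in every library, MLANA was at 1.94 CPM or less, and none of the 10 was at 0. The markers of other cell types summed to between 3.32 and 8.69 CPM in every library, and 7 to 9 of the 10 were under 1 CPM in all 3 libraries of a group. The part of the shift in lineage markers in the results that follow was not tested.

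HSPA5, the chaperone that binds unfolded chains and holds the sensors inactive (chromosome 9, 125234853 to 125241382, minus strand, GENCODE v44 on GRCh38), rose under MAPKi and came down after drug removal. Its level was 596, 600.4 and 617 CPM for CC, 870.5, 981 and 1024 for TC, 769, 892 and 908 for PC, and 775, 699.8 and 648 for RC. Every library of TC, PC and RC lay above every CC library, and RC overlapped PC at 1 library. Against CC, the log2 fold change was 0.66 (edgeR quasi-likelihood test with Benjamini-Hochberg adjustment, SE 0.09, adjusted p 2.3e-05) in TC and 0.50 (SE 0.09, adjusted p 0.000217) in PC. For RC it was 0.23 (SE 0.09, adjusted p 0.0562), which did not pass the threshold of 0.05, and it passed in 6 of 19 alternatives (adjusted p 0.0227 to 0.192), among them the fits without TC replicate 1 (0.23, adjusted p 0.0398), PC replicate 1 (0.23, adjusted p 0.0412) and RC replicate 3 (0.29, adjusted p 0.0302). RC was lower than PC by a log2 difference of -0.28 (SE 0.09, adjusted p 0.0124), a call that was lost without RC replicate 3 (-0.22, adjusted p 0.0551, with a range of 0.00323 to 0.0551 over the alternatives).

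CALR (chromosome 19, 12938578 to 12944489, plus strand) had the largest rise of the 10 genes in TC and PC. It was at 707, 917 and 804 CPM for CC, 1445.5, 1634 and 1760.4 for TC, 1802, 1965 and 2151 for PC, and 1126, 1021 and 975 for RC. No 2 groups overlapped, and the order was CC, RC, TC, PC. Fitted against CC, CALR changed by log2 1.00 (SE 0.11, adjusted p 4.2e-06) in TC, 1.29 (SE 0.11, adjusted p 4.3e-07) in PC and 0.36 (SE 0.11, adjusted p 0.0183) in RC. The call in RC was lost without CC replicate 1 (0.27, adjusted p 0.0768) and without RC replicate 1 (0.31, adjusted p 0.0701), where the range over the alternatives was 0.00375 to 0.0768. RC was 1.90-fold lower than PC (log2 -0.92, SE 0.11, adjusted p 7.3e-06). In the annotation, 9.6% of the exon bases of CALR overlap a gene on the other strand, and the strand setting of the counting was not given in the sources used here.

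HSP90B1 (chromosome 12, 103930107 to 103953931, plus strand), the ER partner of HSPA5, went the other way. It was at 2124, 2867 and 2069 CPM for CC, 1429.6, 1489 and 1470.4 for TC, 1352, 1505 and 1603 for PC, and 2242, 2156 and 2099 for RC. All TC and PC libraries lay below all CC libraries, while RC lay within the range of CC. The log2 fold change was -0.69 (SE 0.11, adjusted p 0.000122) in TC and -0.66 (SE 0.11, adjusted p 0.000153) in PC, about 1.6-fold lower in each (1.61-fold and 1.58-fold). In RC it was -0.12 (SE 0.11, 95% interval -0.36 to 0.12, adjusted p 0.415), and RC was higher than PC by 0.54 (SE 0.11, adjusted p 0.000709). The annotation places 8.0% of the exon bases of HSP90B1 in other genes.

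**Figure D1:**
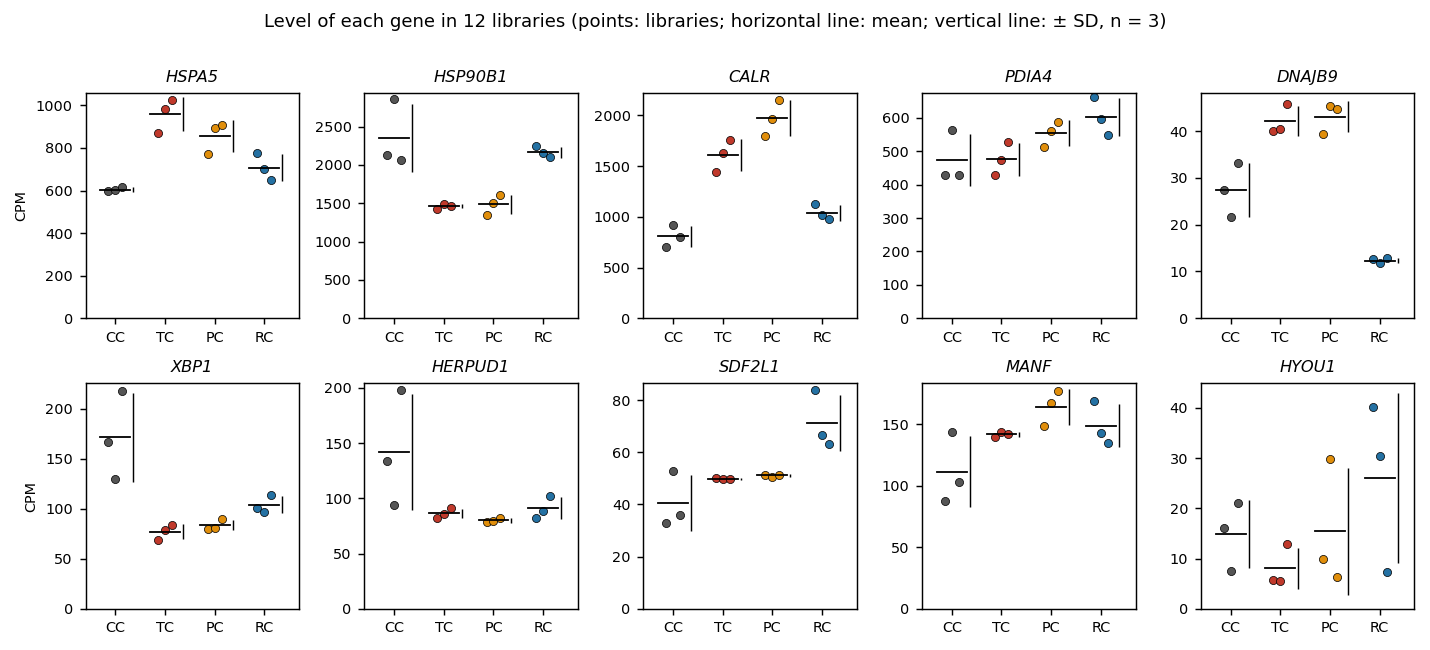
Level of each of the 10 genes in the 12 libraries. The vertical axis of each panel is CPM from 0, the horizontal axis is the group, points are libraries, the horizontal line is the mean and the vertical line the SD (n = 3). CALR and HSPA5 were higher and HSP90B1, XBP1 and HERPUD1 lower in TC and PC, DNAJB9 was lowest in RC, and HYOU1 overlapped in all groups.

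XBP1 and HERPUD1 fell together in all 3 groups that had received MAPKi. XBP1 (chromosome 22, 28794555 to 28800597, minus strand) encodes the transcription factor that IRE1 activates by splicing. Its level was 167, 129.9 and 218 CPM for CC, 68.8, 78.9 and 83.5 for TC, 80.3, 81.3 and 90.1 for PC, and 101, 97.1 and 113.5 for RC. All 9 libraries that had seen MAPKi lay below all 3 CC libraries, and RC lay above TC and PC. XBP1 changed by log2 -1.15 (SE 0.15, adjusted p 2.6e-05) in TC, -1.03 (SE 0.15, adjusted p 6.2e-05) in PC and -0.72 (SE 0.15, adjusted p 0.00292) in RC. RC exceeded PC by 0.31 (SE 0.15, adjusted p 0.086), which did not pass, and which passed in 4 of 19 alternatives (adjusted p 0.00366 to 0.232), including when CC replicate 2 (adjusted p 0.0226) or CC replicate 3 (adjusted p 0.0188) was left out. The counts are per gene and do not separate the spliced from the unspliced XBP1 transcript.

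HERPUD1 (chromosome 16, 56932142 to 56944864, plus strand) encodes a membrane protein of the degradation complex. It was at 133.5, 94.2 and 198 CPM for CC, 82.6, 85.8 and 90.9 for TC, 78.6, 79.0 and 82.1 for PC, and 82.6, 88.6 and 102 for RC. All TC and PC libraries lay below CC, and RC overlapped CC. HERPUD1 changed by log2 -0.72 (SE 0.20, adjusted p 0.00608) in TC, -0.83 (SE 0.20, adjusted p 0.00236) in PC and -0.64 (SE 0.19, adjusted p 0.0222) in RC. CC replicate 3 was more than 2 times CC replicate 2, and without it the values were -0.39 (adjusted p 0.0156) in TC, -0.50 (adjusted p 0.00389) in PC and -0.32 (adjusted p 0.0627) in RC. The call in RC was also lost without RC replicate 1 (-0.57, adjusted p 0.0816) and without RC replicate 2 (-0.62, adjusted p 0.0689). Over all alternatives the adjusted p was 0.000102 to 0.0287 in TC, 4e-05 to 0.0166 in PC and 0.000652 to 0.086 in RC.

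DNAJB9 (ERdj4, chromosome 7, 108569867 to 108574850, plus strand), an HSP70 cochaperone that keeps IRE1 inactive, rose during MAPKi and lay below control after recovery. It was at 27.5, 21.6 and 33.2 CPM for CC, 40.1, 40.5 and 45.8 for TC, 39.3, 45.4 and 44.7 for PC, and 12.6, 11.7 and 12.8 for RC. TC and PC lay above every CC library and RC below every one. DNAJB9 changed by log2 0.62 (SE 0.13, adjusted p 0.00107) in TC, 0.65 (SE 0.13, adjusted p 0.000691) in PC and -1.15 (SE 0.13, adjusted p 7.8e-05) in RC, or 2.22-fold lower in RC. RC was 3.50-fold lower than PC (log2 -1.81, SE 0.13, adjusted p 1.4e-07). The calls of DNAJB9 against CC and of RC against PC were kept in all 19 alternatives.

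SDF2L1 and MANF encode small soluble proteins that work with HSPA5, and SDF2L1 was highest in RC. SDF2L1 (chromosome 22, 21642302 to 21644299, plus strand) was at 32.8, 52.8 and 35.8 CPM for CC, 50.1, 49.6 and 49.6 for TC, 51.5, 50.7 and 51.4 for PC, and 83.8, 66.7 and 63.4 for RC. RC lay above all other libraries, and CC replicate 2 lay above all TC and PC libraries. SDF2L1 rose by log2 0.81 (SE 0.15, adjusted p 0.00146) in RC, against 0.30 (SE 0.15, adjusted p 0.101) in TC and 0.34 (SE 0.15, adjusted p 0.0648) in PC. Without CC replicate 2, the values in TC and PC were 0.53 (adjusted p 0.000793) and 0.57 (adjusted p 0.000453), and the ranges of adjusted p were 0.000793 to 0.356 and 0.000453 to 0.25. The value in PC also passed without RC replicate 1 (0.35, adjusted p 0.0488), with DESeq2 (0.36, adjusted p 0.0282) and with median-of-ratios size factors (0.36, adjusted p 0.0485). RC exceeded PC by 0.48 (SE 0.15, adjusted p 0.0135), which was lost without RC replicate 1 (0.34, adjusted p 0.0722, range 0.000555 to 0.0722).

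MANF (chromosome 3, 51385291 to 51389397, plus strand), a secreted factor that the ER retains while calcium is high, was at 87.9, 143 and 103 CPM for CC, 139, 144 and 142 for TC, 148, 167 and 176.5 for PC, and 168, 143 and 135 for RC. Only PC lay above every CC library, since CC replicate 2 was as high as TC. For MANF the log2 fold change was 0.35 (SE 0.15, adjusted p 0.0549) in TC, 0.56 (SE 0.15, adjusted p 0.00509) in PC and 0.42 (SE 0.15, adjusted p 0.044) in RC. In TC the value passed in 5 of 19 alternatives (adjusted p 0.000671 to 0.221). Among these were DESeq2 (0.36, adjusted p 0.0263) and the fit without CC replicate 2 (0.57, adjusted p 0.000671). The call in RC was lost in 10 of 19 alternatives (adjusted p 0.000894 to 0.158). Without CC replicate 2, it was 0.64 in RC. Among the fits that lost the call were those without CC replicates 1 and 3 (0.27 and 0.37, adjusted p 0.158 and 0.107) and without RC replicates 1 and 2 (0.33 and 0.45, adjusted p 0.156 and 0.0758). The fits without TC replicate 1, 2 or 3 or PC replicate 2 or 3 gave 0.42 each, with adjusted p of 0.0527 to 0.0583.

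PDIA4 (chromosome 7, 149003062 to 149028662, minus strand), the disulfide isomerase, was at 429, 563 and 428 CPM for CC, 428, 474 and 527 for TC, 513, 562 and 589 for PC, and 662, 597 and 547.5 for RC. All 3 groups that had received MAPKi overlapped CC, in which replicate 2 was the highest. The log2 fold change was 0.01 (SE 0.12, 95% interval -0.25 to 0.26, adjusted p 0.953) in TC, 0.23 (SE 0.12, adjusted p 0.103) in PC and 0.35 (SE 0.12, adjusted p 0.0358) in RC. Without CC replicate 2, PC passed (0.37, adjusted p 0.00737, range 0.00737 to 0.305). The call in RC was lost without CC replicates 1 and 3 (0.28 each, adjusted p 0.129 and 0.0978) and without RC replicates 1 and 2 (0.28 and 0.36, adjusted p 0.126 and 0.0751), in a range of 0.00317 to 0.129.

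HYOU1 (GRP170, chromosome 11, 119044188 to 119057227, minus strand), a large HSP70 relative that acts as nucleotide exchange factor of HSPA5, had the lowest level per kilobase of the 10 genes. It was at 16.0, 7.59 and 21.1 CPM for CC, 5.65, 5.57 and 12.9 for TC, 9.91, 29.9 and 6.36 for PC, and 40.2, 30.4 and 7.36 for RC. The libraries of a group lay far apart and every pair of groups overlapped. The log2 fold change was -0.88 (SE 0.67, 95% interval -2.34 to 0.57) in TC, 0.05 (SE 0.66, 95% interval -1.38 to 1.48) in PC and 0.80 (SE 0.66, 95% interval -0.63 to 2.23) in RC, with adjusted p of 0.258, 0.95 and 0.366. RC exceeded PC by 0.75 (SE 0.66, adjusted p 0.325), which passed without PC replicate 2 (1.67, adjusted p 0.0459, range 0.0459 to 0.736). The table lists a numbered copy of HYOU1 with 1 to 6 counts per library. The handling of reads that match both entries is not given in the sources used here, so the level and rank of HYOU1 are uncertain. The annotation places 9.8% of the exon bases of HYOU1 under a gene on the other strand.

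**Figure D2:**
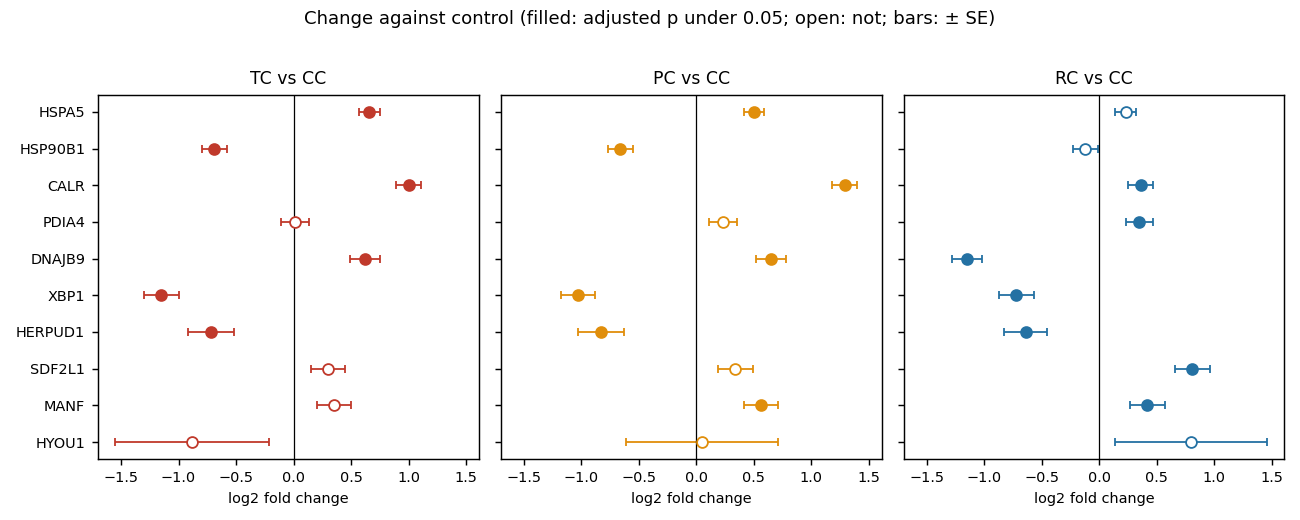
Log2 fold change of each gene against CC in TC, PC and RC, from the edgeR fit. Points are fitted values, bars are SE, and filled points had an adjusted p under 0.05. TC had 3 higher and 3 lower genes, PC 4 and 3, and RC 4 and 3, with DNAJB9 on opposite sides of 0 in PC and RC.

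Against the shares over all genes tested, the members did not move as a block. In TC, 3 of 10 members were higher (CALR, HSPA5 and DNAJB9) and 3 lower (XBP1, HERPUD1 and HSP90B1), where 33.2% of the 15916 genes were higher and 34.7% lower. Beyond 1.5-fold, tested against that fold as a threshold, CALR was higher and XBP1 lower, where 16.1% of all genes were higher and 19.3% lower. PC had 4 higher members (CALR, DNAJB9, MANF and HSPA5) and the same 3 lower, where 33.2% and 35.9% of all genes were called. CALR and XBP1 again passed beyond 1.5-fold, with 17.2% and 19.9% over all genes. The median log2 fold change of the 10 members was 0.15 in TC and 0.28 in PC, beside -0.02 and -0.04 over all genes tested.

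In RC, where fewer genes differed from CC, 4 members were higher (SDF2L1, MANF, CALR and PDIA4) and 3 lower (DNAJB9, XBP1 and HERPUD1), beside 18.2% and 19.1% of all genes. Beyond 1.5-fold, 0 members were higher and DNAJB9 was lower, beside 1.35% and 2.52% of all genes. The number of members called in RC was 3 without RC replicate 1, 4 without CC replicate 1, CC replicate 3 or RC replicate 2, and 4 with only RC and CC in the fit. The median log2 fold change of the 10 members in RC was 0.29, beside 0.00 over all genes. Without CC replicate 2, 4 members passed beyond 1.5-fold in PC and 2 in RC.

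Between TC and PC, 0 members were called by edgeR, beside 12.2% of all genes higher and 12.5% lower in PC, and 0 beyond 1.5-fold beside 2.33% and 1.15%. At an unadjusted p under 0.05 there was 1 (CALR, log2 difference 0.29, SE 0.11, 95% interval 0.06 to 0.52, adjusted p 0.0648), and DESeq2 also called 1, CALR. When 1 library was left out, CALR passed with CC replicate 1 omitted (0.29, adjusted p 0.045), with CC replicate 2 omitted (0.29, adjusted p 0.0371) and with TC replicate 3 omitted (0.36, adjusted p 0.0463), and over all alternatives its adjusted p was 0.0278 to 0.222. The 95% intervals of the other members included -0.25 to 0.31 for DNAJB9 and -0.21 to 0.26 for HSP90B1. RC against PC had 2 members that rose (HSP90B1 and SDF2L1) and 3 that fell (DNAJB9, CALR and HSPA5), beside 35.7% and 34.2% of all genes, and beyond 1.5-fold 0 rose and 2 fell (DNAJB9 and CALR), beside 20.2% and 18.5%. The comparisons with CC share the CC libraries, and those with PC share the PC libraries.

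Levels of different genes were compared per kilobase of exon, with all GENCODE v44 exons of a gene merged. Merged exons can be longer than the transcript in use, and reads were counted on the NCBI annotation, so the ranks depend on these lengths. The length was 13092 bases for HSP90B1, 6530 for HSPA5 and 2802 for CALR. Before division by length, HSP90B1 was above CALR in CC (2353.3 and 809.2 CPM) and RC (2165.9 and 1040.5 CPM), but not in TC or PC. CALR came first in every group, at 289 CPM per kilobase for CC, 576 for TC, 704.0 for PC and 371 for RC. HYOU1 came last, at 1.18 to 3.81. HSP90B1 held rank 2 in CC (179.8) and rank 4 in TC (111.7) and PC (113.6), while HSPA5 held rank 4 in CC (92.6) and rank 2 in TC (147). XBP1 held rank 5 in CC (56.7) and rank 7 in the other groups (25.5 to 34.3). In CC the libraries of HSP90B1 and PDIA4 overlapped, as did those of XBP1 and MANF, of MANF and SDF2L1 and of SDF2L1 and HERPUD1. The overlapping neighbours were HSPA5 with PDIA4 and HERPUD1 with DNAJB9 in TC, HSPA5 with HSP90B1 and DNAJB9 with HERPUD1 in PC, and PDIA4 with HSP90B1, MANF with SDF2L1 and DNAJB9 with HYOU1 in RC.

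The median coefficient of variation of the 10 members was 23.4% for CC, 7.87% for TC, 8.14% for PC and 9.27% for RC, and 8 members had their highest value in CC. HSPA5 was the exception on the low side, with 1.85% in CC. CC replicate 2 was the highest CC library for HSP90B1, CALR, PDIA4, SDF2L1 and MANF, and the lowest for DNAJB9, XBP1, HERPUD1 and HYOU1. CC replicate 3 was the highest for HSPA5, DNAJB9, XBP1, HERPUD1 and HYOU1.

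Over the 12 libraries, which share 4 group means, 23 of the 45 pairs of members had a Pearson correlation of log2 CPM above 0. XBP1 and HERPUD1 reached 0.92, HSPA5 and CALR 0.89, and PDIA4 and SDF2L1 0.83. The lowest pairs were HERPUD1 with MANF (-0.83), CALR with XBP1 (-0.82), HSP90B1 with CALR (-0.81) and HSPA5 with XBP1 (-0.81). The 5 genes whose log2 CPM was most like the mean standardised profile of the members over the 12 libraries were DYNLT2B (r 0.862), EXTL2 (0.859), FKBP14 (0.85), TMEM243 (0.831) and FAM3C (0.814). DYNLT2B was at 0.347 CPM or less in every library. The members' mean profile ran from -0.48 in CC replicate 1 to 0.47 in RC replicate 1 in units of SD.

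The members' coding sequences were compared by codons for aspartate and glutamate. The share of such codons was 26.14% in CALR, 21.3% in HSP90B1, 18.14% in PDIA4, 16.97% in HSPA5 and 16.62% in HYOU1, between the percentiles 91.6 and 99.7 of 12726 tested genes with a complete coding sequence in GENCODE v44. It was 15.43% in XBP1, 14.84% in MANF, 12.11% in DNAJB9, 11.51% in HERPUD1 and 9.5% in SDF2L1. The median was 16.02% over the members and 11.88% over all genes. Of the genes with the 2 highest shares, CALR rose and HSP90B1 fell in TC and PC. The share pooled GAT with GAC and GAA with GAG. The paper reports, on average, more aspartate and glutamate residues in proteins from mRNAs lowered by a shorter MAPKi treatment than from raised mRNAs. Among codons, it reports enrichment of GAA and GAT, and not of GAG and GAC, in the lowered mRNAs. Whether codon content played a part in the changes of the members was not tested.

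The sensors and regulators of the pathway, 17 genes that were all tested, had calls in both directions. TC had 7 higher and 6 lower, PC 6 and 6, and RC 2 and 6, where all genes tested had 33.2% higher and 34.7% lower for TC, 33.2% and 35.9% for PC, and 18.2% and 19.1% for RC. The counts in TC and PC were near those shares. The median log2 fold change of the list was 0.02 in TC, -0.09 in PC and -0.33 in RC, beside -0.02, -0.04 and 0.00 over all genes. ATF4, DDIT3 and TRIB3 fell in all 3 groups. ATF4, the transcription factor downstream of PERK, was at 614.5, 533 and 769 CPM for CC, 189.7, 184 and 196 for TC, 222, 215 and 208 for PC, and 292.5, 326 and 389 for RC, with no overlap between CC and any other group. Its log2 fold change was -1.75 (SE 0.13, adjusted p 1.4e-07) in TC, -1.57 (SE 0.13, adjusted p 3.4e-07) in PC and -0.93 (SE 0.13, adjusted p 0.000196) in RC. DDIT3 (CHOP), the factor of cell death under ER stress, was at 84.6 ± 7.68 CPM (SD, n = 3) for CC, 12.4 ± 0.821 for TC and 31.5 ± 8.53 for RC (log2 -2.77 and -1.42, SE 0.17 and 0.16, adjusted p 3.4e-08 and 7.3e-05). TRIB3, a pseudokinase induced by ATF4 and CHOP, had a mean of 217 ± 97.8 CPM for CC and 22.3 ± 0.661 for TC (log2 -3.28, SE 0.34, adjusted p 3.2e-06). ATF3, a stress factor that other pathways also induce, went the other way, with 30.9 ± 12.6 CPM for CC, 275 ± 10.3 for TC and 285 ± 8.49 for PC (log2 3.15 and 3.20, SE 0.22 each, adjusted p 9.6e-08 and 7.8e-08). In RC, ATF3 was at 19.5 ± 2.41 CPM (log2 -0.66, SE 0.21, adjusted p 0.0277), a call that was lost without CC replicate 3 (-0.28, adjusted p 0.0748) and without RC replicates 1 and 2 (-0.58 and -0.64, adjusted p 0.0984 and 0.0807), in a range of 0.00194 to 0.0986.

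The 3 sensors did not change alike. ERN1, which encodes IRE1, was at 49.0, 23.2 and 41.8 CPM for CC, 15.3, 14.2 and 13.8 for TC, 13.4, 13.9 and 13.3 for PC, and 20.5, 21.9 and 24.6 for RC. TC and PC lay below every CC library, and RC overlapped CC replicate 2. ERN1 was lower in TC (log2 -1.40, SE 0.21, adjusted p 6.6e-05), PC (-1.49, SE 0.21, adjusted p 3.7e-05) and RC (-0.77, SE 0.20, adjusted p 0.0108), and the call in RC was lost without CC replicate 1 (-0.54, adjusted p 0.052, range 3.3e-05 to 0.0526). EIF2AK3, which encodes PERK, was higher in TC and PC (log2 0.51 and 0.42, SE 0.10 each, adjusted p 0.000782 and 0.00282) and at -0.04 in RC (SE 0.10, adjusted p 0.79). ATF6 did not pass in any of the 3 comparisons with CC (log2 0.16, -0.09 and -0.19, SE 0.09 each, adjusted p 0.114, 0.396 and 0.11), although it passed without TC replicate 1 in TC (0.24, adjusted p 0.0363, range 0.0363 to 0.382) and without CC replicate 2 in RC (-0.27, adjusted p 0.0219, range 0.0219 to 0.28). CREB3L1, another membrane-bound transcription factor of the ER, was at 2.18 ± 0.212 CPM in PC against 0.177 ± 0.143 in CC (log2 3.58, SE 0.47, adjusted p 2.5e-05), a low level throughout. The value of ATF6B rests on 1 library and is uncertain: the listed gene was at 23.9 CPM in TC replicate 3 and at 0.301 or less in the other 11 libraries, and with its numbered copies summed its log2 fold change in TC was 0.81 (adjusted p 0.12) in place of 6.44 (SE 1.77, adjusted p 0.00644). The 7 regulators counted as higher in TC include ATF6B as listed.

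**Figure D3:**
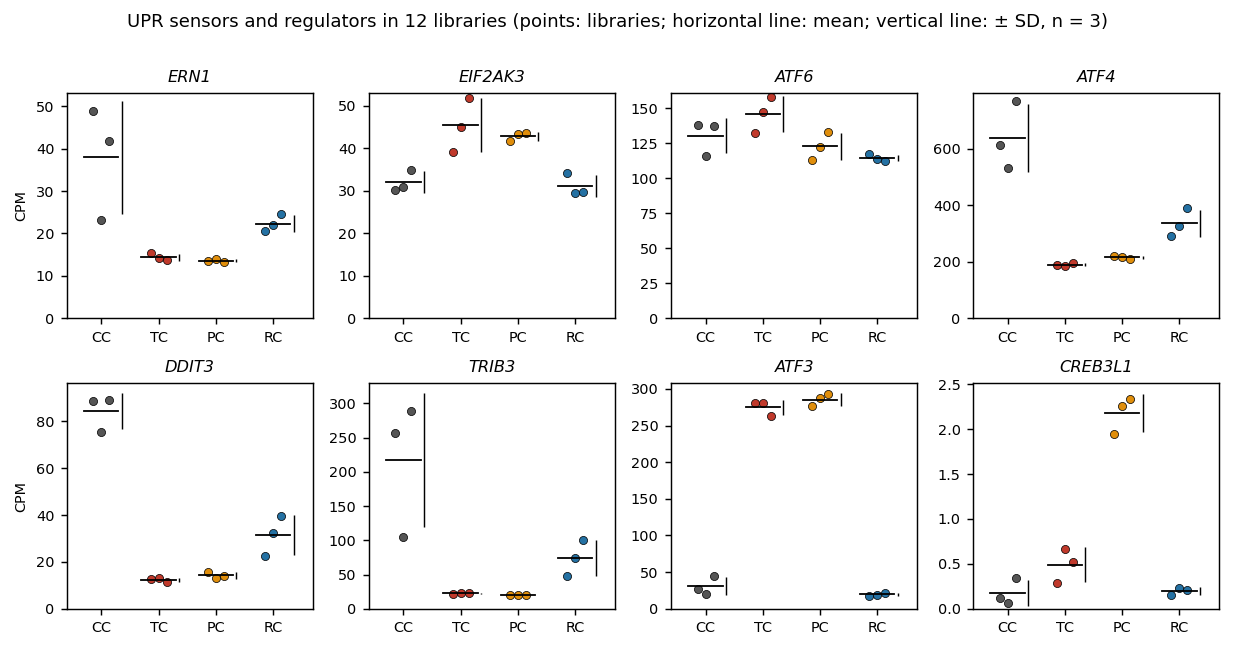
Level of 8 sensors and regulators of the unfolded protein response in the 12 libraries, in CPM from 0. Points are libraries, the horizontal line is the mean and the vertical line the SD (n = 3). ATF4, DDIT3 and TRIB3 were below every CC library in TC, PC and RC, ERN1 was below every CC library in TC and PC and overlapped CC in RC, ATF3 was at 263 to 293 CPM in TC and PC and at 17.4 to 45.0 in CC and RC, and CREB3L1 was highest in PC.

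Most of the other ER chaperones rose under MAPKi and did not stay high in RC. Of the 22 that were tested, TC had 15 higher and 3 lower (median log2 0.49), PC 17 and 2 (median 0.69), and RC 2 and 6 (median -0.09). Over all genes tested, 33.2% were higher and 34.7% lower for TC, 33.2% and 35.9% for PC, and 18.2% and 19.1% for RC, with medians of -0.02, -0.04 and 0.00. CRELD2, a secreted protein known to be induced by ER stress, was at 42.0 ± 6.59 CPM for CC and 107 ± 2.69 for TC (log2 1.35, SE 0.11, adjusted p 3.7e-07). SDF2, the relative of SDF2L1, was at 31.1 ± 1.77 CPM for CC and 78.7 ± 4.49 for TC (log2 1.34, SE 0.07, adjusted p 1e-08) and was at 33.6 ± 2.26 in RC (0.11, SE 0.07, adjusted p 0.241). SDF2L1 itself was higher in RC and did not pass in TC. CRELD1 rose in TC (1.08, SE 0.08, adjusted p 1.2e-07) and was below CC in RC (-0.95, SE 0.08, adjusted p 1.4e-05). CDNF, the relative of MANF, was at 1.29 CPM in CC and fell in TC (-1.36, SE 0.32, adjusted p 0.00233). Calnexin (CANX), the membrane partner of calreticulin, is uncertain, because 95.7% of its counts were listed under a numbered copy and the listed gene reached 55.7 CPM in PC replicate 2 alone. As listed, its log2 fold change in PC was 2.74 (SE 1.10, adjusted p 0.0426), and without PC replicate 2 it was -1.19 (adjusted p 0.00567, range 0.00567 to 0.191). The 17 chaperones counted as higher in PC include CANX as listed. With the copies summed, it was -0.58 (adjusted p 0.00166) in TC and -0.43 (adjusted p 0.0107) in PC, where CALR rose.

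Of 18 disulfide isomerases and oxidases tested, TC had 5 higher and 6 lower, PC 5 and 4, and RC 3 and 6. Over all genes tested, 33.2% were higher and 34.7% lower for TC, 33.2% and 35.9% for PC, and 18.2% and 19.1% for RC. The counts in TC were near those shares, and the median log2 fold change was 0.02, beside -0.02 over all genes. ERO1B, an oxidase that recharges the isomerases, was at 39.8, 33.0 and 38.4 CPM for CC, 64.3, 74.6 and 75.2 for TC, 117, 132 and 141 for PC, and 18.1, 18.7 and 18.4 for RC. Its log2 fold change was 0.94 (SE 0.09, adjusted p 1.6e-06) in TC, 1.81 (SE 0.09, adjusted p 6.4e-09) in PC and -1.01 (SE 0.09, adjusted p 2.7e-05) in RC, so it was on the same sides of CC as DNAJB9. PDIA5 fell in TC (-1.51, SE 0.12, adjusted p 4.3e-07), as did TMX4 (-0.84, SE 0.07, adjusted p 4.3e-07), which rose in RC (0.69, SE 0.07, adjusted p 3.7e-05).

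Degradation and export genes were mostly higher in TC. Of 24 genes of ER-associated degradation, TC had 17 higher and 2 lower (median log2 0.52), PC 17 and 2 (median 0.40), and RC 6 and 1 (median 0.02). Beside these stand 33.2% of all genes higher and 34.7% lower for TC, 33.2% and 35.9% for PC, and 18.2% and 19.1% for RC, with medians of -0.02, -0.04 and 0.00. MAN1B1, the mannosidase that marks glycoproteins for removal, rose in TC (1.04, SE 0.09, adjusted p 7.5e-07), and so did HM13, a signal peptide peptidase (0.95, SE 0.08, adjusted p 3.4e-07), and NPLOC4, a cofactor of the VCP ATPase (0.83, SE 0.07, adjusted p 7e-07). UFD1, the partner of NPLOC4, was higher in RC (0.66, SE 0.07, adjusted p 6e-05). It was also higher in TC (0.33 to 0.49) and PC (0.29 to 0.46) in all 19 alternatives, as was NPLOC4 in RC (0.37 to 0.50). HERPUD1, a member that acts in degradation, fell. Of 24 genes of ER export and retrieval, TC had 15 higher and 3 lower, PC 11 and 5, and RC 3 and 1 (medians 0.33, 0.18 and 0.04), beside the same shares and medians over all genes. The 4 calls in RC became 1 to 7 when 1 library was left out, and moved by over 1.5 times without any of the CC, PC or RC libraries or TC replicate 2. TMED9, a cargo receptor, and SEC24D, a coat protein, rose in TC (0.91 and 0.77, SE 0.12 each, adjusted p 3.5e-05 and 0.000105), and LMAN1, another cargo receptor, fell (-0.73, SE 0.09, adjusted p 1.4e-05).

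Genes of entry into the ER and of glycosylation were called in both directions. Of 21 translocon and signal peptide genes, TC had 10 higher and 5 lower, PC 11 and 7, and RC 7 and 4, beside 33.2% of all genes higher and 34.7% lower for TC, 33.2% and 35.9% for PC, and 18.2% and 19.1% for RC. The 11 calls in RC became 5 to 12 when 1 library was left out, and moved by over 1.5 times without CC replicate 1, TC replicate 2 or any of the RC libraries. Within the translocon-associated complex, SSR4 rose (0.93, SE 0.08, adjusted p 6.5e-07) and SSR3 fell (-0.98, SE 0.07, adjusted p 2e-07) in TC. SRP72, of the signal recognition particle, fell as well (-0.65, SE 0.06, adjusted p 5.5e-07), and TRAM2 was highest in PC (1.01, SE 0.14, adjusted p 5.3e-05). Of 22 genes of N-glycosylation and lectin quality control, TC had 6 higher and 8 lower, PC 9 and 7, and RC 2 and 6, beside the same shares over all genes. The glycosylation counts in TC were near the shares over all genes, with a median log2 fold change of 0.01 beside -0.02. The 8 calls in RC became 4 to 11, and moved by over 1.5 times without RC replicate 2 or 3. OST4, of the oligosaccharyltransferase, and MOGS, the glucosidase that starts glycan trimming, rose in TC (0.92 and 0.77, SE 0.12 and 0.10, adjusted p 2.1e-05 and 2.9e-05). UGGT1, which returns misfolded glycoproteins to calreticulin and calnexin, fell (-0.51, SE 0.09, adjusted p 0.000197), and DPAGT1 was higher in RC (0.61, SE 0.08, adjusted p 0.000185).

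Of 15 calcium channels, pumps and buffers, TC had 4 higher and 5 lower, PC 7 and 6, and RC 2 and 4. Over all genes tested, 33.2% were higher and 34.7% lower for TC, 33.2% and 35.9% for PC, and 18.2% and 19.1% for RC. The counts in TC were near those shares, and the medians of the list were 0.11, -0.11 and 0.04, beside -0.02, -0.04 and 0.00 over all genes. The calcium-binding proteins RCN2 and SDF4, the latter of the Golgi, rose with CALR in TC (1.88 and 0.96, SE 0.10 and 0.08, adjusted p 1.1e-08 and 5e-07). RCN3 went the other way, with means of 43.3 CPM for CC, 26.1 for TC, 29.5 for PC and 26.7 for RC. RCN3 was lower in TC in all 19 alternatives (log2 -0.86 to -0.61), and lower in RC (-0.70, SE 0.14, adjusted p 0.00237). The release channels ITPR3 and ITPR2 fell, with -0.90 (SE 0.11, adjusted p 1.4e-05) for ITPR3 in TC and -1.79 (SE 0.08, adjusted p 2.7e-09) for ITPR2 in PC. Of the 12 HSP70 and HSP90 relatives outside the ER that were tested, TC had 3 higher and 6 lower, PC 3 and 8, and RC 6 and 1 (medians -0.39, -0.70 and 0.36), beside 33.2% and 34.7% of all genes for TC, 33.2% and 35.9% for PC, and 18.2% and 19.1% for RC. The mitochondrial TRAP1 and HSPA9 fell in TC (-1.88 and -1.18, SE 0.07 and 0.10, adjusted p 3.7e-10 and 8.1e-07), as did HSPA4L (-2.66, SE 0.20, adjusted p 2e-07). The cytosolic HSP90AA1 was at 1861 ± 432 CPM for CC, 1757 ± 103 for TC and 4296 ± 165 for RC (log2 1.21, SE 0.13, adjusted p 4.6e-05), while its ER relative HSP90B1 was within the CC range in RC.

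**Figure D4:**
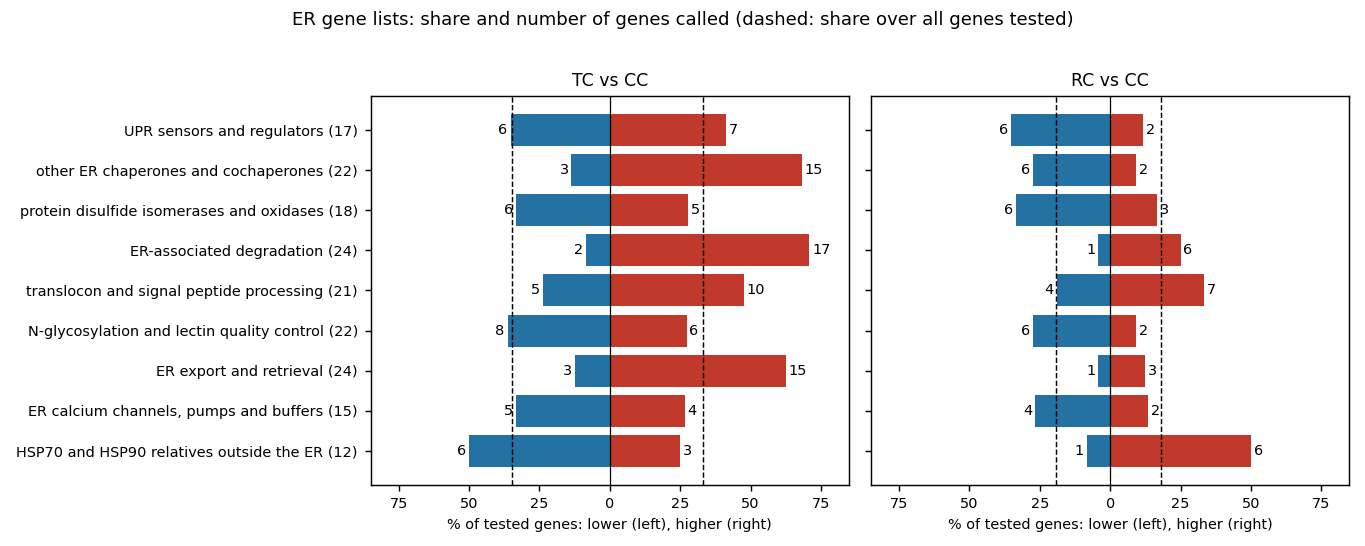
Share of the tested genes of 9 lists called higher (right) or lower (left) in TC and RC against CC at an adjusted p under 0.05. The horizontal axis is percent of the genes tested in the list, with that number in brackets, labels on the bars are gene counts, and dashed lines are the shares over all 15916 genes. In TC the bars reach 15 of 22, 17 of 24 and 15 of 24 genes higher for other chaperones, degradation and export, and in RC 6 of 12 for HSP70 and HSP90 relatives outside the ER.

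Of the 195 genes in the members and the 9 lists, 7 had more than 10% of their counts in numbered copies (RNF5, ORAI1, HSPA1B, HSPA1A, SURF4, CANX and ATF6B). The first 5 of these did not pass the filter as listed and were not tested, and no member was among the 7. HYOU1, the member with a numbered copy, had 0.373% of its counts there, a share that cannot show reads left uncounted.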

How the data were processed

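Cytoplasmic RNA depleted of ribosomal RNA was sequenced as paired reads. The authors trimmed reads with fastp 0.20.1, aligned them to GRCh38.p13 with HISAT2 2.2.1 and deposited raw counts per gene, made with htseq-count 0.13.5 and the NCBI annotation. The handling of strand and of reads with several matches is not given in the sources used here. Groups came from the sample labels, and 0 sample columns were left unmapped.

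Genes with a mean scaled count of at least 10 were kept, scaled by TMM and fitted over the 12 libraries with edgeR 4.0.16 in R 4.3.3 (8 residual degrees of freedom). The quasi-likelihood test was adjusted by Benjamini-Hochberg over all 15916 genes, with calls at an adjusted p of 0.05, and changes beyond 1.5-fold were tested against that fold. SE were derived from the F statistic, and intervals are 95%. At the lowest depth, 3 counts equal 0.0794 CPM. Correlations used log2 of CPM plus 0.5. Members and gene lists were chosen with earlier results of these data known. Named genes were the 3 largest called changes of each list in TC, the largest in PC and in RC, and 5 fixed genes (ERN1, EIF2AK3, ATF6, ATF4 and DDIT3), and not all of them are printed. Alternatives were median-of-ratios size factors, library totals, a summed count of at least 2, a replicate block, DESeq2 1.42.0, a fit of only the 2 groups compared, each library left out, and numbered copies of genes summed, which was chosen after seeing the data. The fit was tested on simulated data. Replicate numbers were not taken to pair libraries in the main fit, since the labels do not say that they do. The column headers of the 4 groups do share a suffix per replicate number. The deviations of same-numbered libraries correlated at -0.037 to 0.155 over 18 pairs, with 2 over 0.1. For CC with TC, CC with PC and TC with PC, all 3 libraries correlated best with their own number, so a pairing remains possible. No libraries were duplicates.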

Additional observations from a re-analysis of the deposited data

Results flagged for a closer look

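DNAJB9, a member, and 8 other genes were on opposite sides of CC in PC and in RC, with a call in each and a direct test of RC against PC that passed (edgeR quasi-likelihood test, adjusted over all genes). The direct test is of the difference between the 2 days after drug removal, and PC and RC share the CC libraries in the calls against CC. It uses the same PC and RC libraries as those calls, so it is not separate evidence of opposite directions. The 8 other genes are named genes, which were picked from the lists for the size of a called change. The share of all genes tested with opposite calls in PC and RC was not counted. The number of genes found here therefore has no background to be read against.

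DNAJB9 changed by log2 0.65 in PC and -1.15 in RC, a difference of -1.81 (SE 0.13). ERO1B, the oxidase, differed by -2.82 (SE 0.10) and CRELD1 by -1.64 (SE 0.08). DPAGT1, the enzyme that starts N-glycan assembly, went from -0.30 to 0.61, a difference of 0.90 (SE 0.08), and TMX4 differed by 1.26 (SE 0.07).

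The call against CC was lost in some alternatives for the other 4 genes, while the difference between RC and PC was not. ATF3 differed by -3.87 (SE 0.23), and its call in RC was lost in 4 of 19 alternatives. SSR4 differed by -1.23 (SE 0.08), with the call in RC lost in 9, and MOGS by -0.95 (SE 0.10), with the call in RC lost in 4. HSP90AA1 differed by 1.5 (SE 0.13), and its call in PC (-0.30) was lost in 17, with a value of -0.10 without CC replicate 2.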

How the results depend on the processing

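Of 950 values for the 10 members under 19 alternatives, 889 kept their direction and their side of the threshold, 23 lost a call, 29 gained one and 9 changed sign. The cause was not tested. PDIA4 in TC against CC was -0.01 with library totals and -0.07 to 0.15 when 1 library was left out. HYOU1 in PC against CC was -0.06 with the replicate block and -0.87 to 0.43 with 1 library left out. HSP90B1 was -0.20 to 0.05 in RC against CC and -0.03 to 0.09 in PC against TC with 1 library left out. In RC against CC, EIF2AK3 was -0.10 to 0.03 with 1 library left out, and DUSP6, a MAPK feedback gene that does not enter the comparisons above, was 0.65 without CC replicate 3 against -0.22 with it. CANX, with copies summed, was -0.43 in PC against CC and 0.66 in RC against PC, and with 1 library left out it was -1.19 to 3.30, -0.04 to 4.46 (PC against TC) and -3.44 to 1.05, with the sign changed without PC replicate 2. With only the 2 groups compared in the fit, RC against CC called 4 members, 4 translocon genes and 1 export gene. In PC against TC, members called were 1 with library totals, DESeq2 or only 2 groups, regulators 1 with the replicate block or DESeq2 and 4 with only 2 groups, isomerases 5 with library totals, DESeq2 or only 2 groups, and degradation genes 2 with median-of-ratios size factors and 1 with a summed count of at least 2. With 1 library left out, RC against CC called 3 to 8 members, 1 to 2 of them beyond 1.5-fold (2 to 4 in PC against CC), 5 to 12 translocon, 4 to 11 N-glycosylation and 1 to 7 export genes. PC against TC then called 0 to 1 members, 1 to 4 regulators, 2 to 7 other chaperones, 1 to 6 isomerases, 1 to 5 degradation, 3 to 7 translocon, 1 to 5 N-glycosylation, 4 to 13 export, 3 to 7 calcium genes and 3 to 7 relatives outside the ER. Labels do not say that replicate numbers pair libraries. Among members the replicate block gained a call for XBP1 in RC against PC (0.31, adjusted p 0.032). Every library correlated best with its own number in 3 of 6 pairs of groups. DESeq2 gave no adjusted p for ATF6B and CANX in some comparisons, which were not counted.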
